A study of Mus musculus with 8 samples.

Results

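The glutathione S-transferases described here are 10 genes, Gsta1, Gsta2, Gsta3, Gsta4, Gstm1, Gstm2, Gstm3, Gstp1, Mgst1 and Mgst3, of the 52636 genes in the deposited count tables. They were taken by symbol through the Ensembl gene identifiers on the mouse build GRCm38, and the list was selected on results of the contrast of the 2 groups in these same mice, that is on their log2 fold changes and calls. Their differences between the groups are therefore a description and carry no test of their own. All 10 members had enough counts to be among the 15248 genes tested.

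Livers came from 8 male wild-type C57BL/6J mice, 1 library per mouse. Groups of 4 received an adeno-associated virus of serotype 8 at 7 weeks of age, carrying either GFP (AAV8-TBG-GFP; mice 303, 311, 314 and 315) or human AGXT (AAV8-TBG-AGXT; mice 308, 309, 316 and 319). AGXT is alanine-glyoxylate aminotransferase, a liver enzyme that turns glyoxylate into glycine, and the TBG promoter restricts both transgenes to hepatocytes. All mice ate a diet rich in fat, fructose and cholesterol that induces metabolic dysfunction-associated steatohepatitis (MASH) for 24 weeks from 8 weeks of age, so virus and diet are common to both groups and the comparison holds no uninjected or chow-fed mouse. The AAV8-AGXT group against the AAV8-GFP group asks what raised hepatocyte AGXT does to the liver transcriptome under this diet.

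Glutathione S-transferases join the tripeptide glutathione to electrophiles, among them drug metabolites and the aldehydes formed when lipids are oxidized, and so prepare them for export and breakdown. The soluble enzymes fall into classes named alpha, mu, pi, theta, omega, zeta and kappa, while the microsomal ones (Mgst1, Mgst3) sit in membranes and belong to the MAPEG family together with enzymes of leukotriene and prostaglandin synthesis. Hepatocytes are the main site of these enzymes in the liver, several alpha and mu genes are known targets of the transcription factor NRF2, and some members are also made by bile duct cells and other cells. Values are normalized CPM, the usual depth-scaled counts of read pairs on a gene (CPM) with TMM factors applied to the library sizes. A log2 fold change is that of AAV8-AGXT over AAV8-GFP from edgeR, with its standard error (SE), and a gene was called at an edgeR adjusted p under 0.05.

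Before levels can be compared, the members must be separable, because several are near-copies of their neighbours. Gsta1 (chromosome 9, 78230656 to 78242684) lies in a row with Gm3776, Gm10639 and Gsta2, and its coding sequence differed from that of Gm3776 at 2 of 672 bases and from that of Gsta2 at 17. A stretch of coding bases 462 to 528, which lies in 1 exon in each gene, is shown because no other stretch of its length held more differing positions. It holds 6 of the 22 positions that differed over the compared coding sequence, so it is a best case, and it still leaves Gsta1 and Gm3776 identical. It was read 5′ to 3′ in the direction of transcription from the GENCODE M21 transcripts, and capitals mark the 6 positions at which the 4 genes are not all alike. It lies at chr9:78241574-78241640 (plus strand) in Gsta1, chr9:78268057-78268123 (plus) in Gm3776, chr9:78304419-78304485 (plus) in Gm10639 and chr9:78332105-78332171 (minus) in Gsta2.
Gsta1: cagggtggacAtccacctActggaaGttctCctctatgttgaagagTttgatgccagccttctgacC
Gm3776: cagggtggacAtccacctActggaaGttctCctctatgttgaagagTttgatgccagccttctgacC
Gm10639: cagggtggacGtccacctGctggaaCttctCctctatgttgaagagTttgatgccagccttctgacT
Gsta2: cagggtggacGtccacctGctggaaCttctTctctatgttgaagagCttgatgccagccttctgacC

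The stretch is 67 bases long, the length left of a 76-base read after its first 9 cycles were trimmed. Of all 67-base words in the annotated transcripts of Gsta1, 86.5% also occur in another gene, and 71.4% occur in Gm3776. The shares were 90.2% for Gm3776, 40.4% for Gsta2 and 40.9% for Gm10639. A read pair with both mates in words shared with the same other gene has no single place in the genome. Counts of these genes therefore rest on the remaining pairs and are uncertain. Read pairs aligned to several places took 17.4 to 20.6% of the tallies in AAV8-GFP mice and 19.5 to 23.4% in AAV8-AGXT mice, over all genes.

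The mu genes are easier to separate. Gstm1 and Gstm3, on either side of Gstm2 on chromosome 3, differed at 69 of 657 coding bases, Gstm1 and Gstm2 at 91, and Gstm2 and Gstm3 at 97. Coding bases 325 to 391 of the 3 genes are shown, again 67 bases read in the direction of transcription. These genes were compared because the difference between the groups was unlike in size among them. The stretch holds 24 of their 126 differing positions (capitals), by which the counting could tell them apart. No other stretch of this length held more, so it is again a best case. The stretch crosses an exon junction in each gene and lies within chr3:108015010-108016363, chr3:107966344-107967610 and chr3:107984194-107985084 for Gstm1, Gstm3 and Gstm2, all on the minus strand.
Gstm1: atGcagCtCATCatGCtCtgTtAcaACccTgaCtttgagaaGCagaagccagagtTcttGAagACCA
Gstm3: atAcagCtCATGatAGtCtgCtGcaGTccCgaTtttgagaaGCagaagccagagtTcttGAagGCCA
Gstm2: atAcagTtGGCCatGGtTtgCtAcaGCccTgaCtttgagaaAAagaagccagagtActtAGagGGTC

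Of the words of Gstm1, 13.6% were shared with another gene, mostly the pseudogene Gstm2-ps1. For Gstm3 the share was 23.9%, and for Gstm2 it was 2.80%. Gstp1 shared 30.6% of its words with Gstp2 or a pi pseudogene, and its coding sequence differed from that of Gstp2 at 12 of 633 bases. No 67-base word of Gsta3, Gsta4, Mgst1 or Mgst3 occurred in another gene, so counts of these 4 members cannot be confused with a paralog's in this way.

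Levels of the members ranged widely. Per kb of exon, the mean normalized CPM in AAV8-GFP mice was 1800.0 for Mgst1 and 1007 for Gstm1, which together made up 54.2% and 30.3% of the sum over the 10 members. Gstp1 (183.9) and Gsta3 (129.9) came next and overlapped between mice. Gstm3 (67.5), Gstm2 (44.2), Gsta4 (43.2) and Mgst3 (30.9) followed, each overlapping with the next in this order, and Gsta2 (9.63) and Gsta1 (7.62) were lowest and also overlapped. In AAV8-AGXT mice the order began with the same 4 genes, at 2164 for Mgst1, 603.7 for Gstm1, 211.7 for Gstp1 and 133.7 for Gsta3 CPM per kb. Gstm3, in place 5 in AAV8-GFP mice, was in place 7 in AAV8-AGXT mice at 15.3, below Gstm2 (33.4) and Gsta4 (25.6), with overlapping mice between neighbours. Mgst1 then made up 67.4% and Gstm1 18.8% of the sum per kb.

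**Figure D1:**
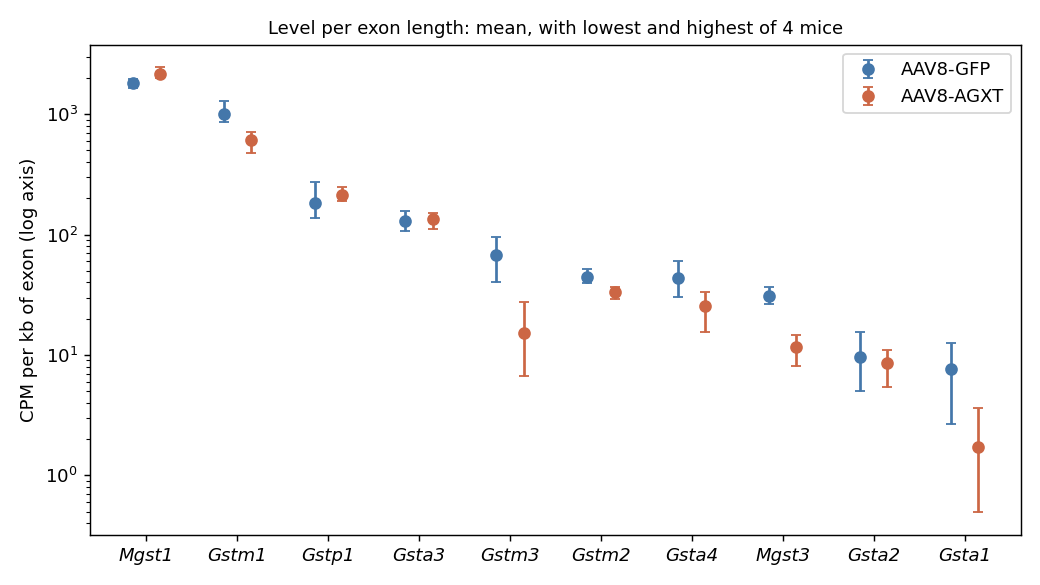
Level of each member per kb of exon (normalized CPM per kb, log axis) in AAV8-GFP (blue) and AAV8-AGXT (orange) mice, members ordered by their AAV8-GFP mean; points are means and bars run from the lowest to the highest of 4 mice. Mgst1 and Gstm1 stand above all other members in both groups, and the bars of the groups are apart for Gstm1, Gstm2, Gstm3, Mgst1 and Mgst3.

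Mgst3, a membrane enzyme with glutathione transferase and lipid peroxidase activity, is on chromosome 1 (167371966 to 167393841, minus strand). Its level was 30.0, 28.9, 40.5 and 36.0 normalized CPM in AAV8-GFP mice 303, 311, 314 and 315, and 8.84, 16.1, 14.2 and 12.03 in AAV8-AGXT mice 308, 309, 316 and 319. Every AAV8-AGXT mouse was below every AAV8-GFP mouse, and mouse 308 was lowest. Group means were 33.8 ± 5.41 and 12.8 ± 3.12 CPM (SD, n = 4 each), and the log2 fold change was -1.40 (SE 0.19). These levels rest on 768 to 944 read pairs per AAV8-GFP mouse and 128 to 276 per AAV8-AGXT mouse.

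Mgst1, the most abundant member and the trimeric microsomal transferase of hepatocyte membranes (chromosome 6, 138140316 to 138156755, plus strand), lay on the other side. It was at 3955, 3339, 3289 and 3910.1 CPM in AAV8-GFP mice and 4955, 4378, 3973 and 4121 CPM in AAV8-AGXT mice. The groups did not overlap, but the highest AAV8-GFP mouse (303) and the lowest AAV8-AGXT mouse (316) were close. Its log2 fold change was 0.27 (SE 0.15), and it was not called. Scaling by total counts in place of TMM brought the log2 fold change to 0.03.

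Among the mu members, Gstm1, which encodes the major mu enzyme of mouse liver (chromosome 3, 108012255 to 108017973, minus strand), was at 1253, 1395, 1391 and 1896 CPM in AAV8-GFP mice and 882, 1048, 933 and 694 CPM in AAV8-AGXT mice. All AAV8-AGXT mice were lower, mouse 319 the most, and the log2 fold change was -0.74 (SE 0.18). Gstm3 (chromosome 3, 107963696 to 107969283, minus strand) was at 53.2, 76.2, 98.3 and 126.1 CPM in AAV8-GFP mice and 8.70, 36.4, 23.3 and 11.7 CPM in AAV8-AGXT mice. The spread within each group was wide for Gstm3, with a coefficient of variation of 35.2% in AAV8-GFP and 63.1% in AAV8-AGXT mice, and the groups were still apart. Its log2 fold change of -2.14 (SE 0.43) was the largest in size among the members, with that of Gsta1 (-2.13) close to it. Gstm2, encoded between Gstm3 and Gstm1, was at 66.5, 73.6, 86.3 and 70.4 CPM against 61.4, 54.4, 49.2 and 59.4 CPM, again without overlap, and its log2 fold change was -0.40 (SE 0.11).

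Of the alpha members, Gsta1 was at 2.58, 4.90, 9.64 and 12.04 CPM in AAV8-GFP mice and 0.483, 2.16, 3.44 and 0.472 CPM in AAV8-AGXT mice. AAV8-AGXT mouse 316 was above AAV8-GFP mouse 303, so the groups overlapped, and the log2 fold change was -2.13 (SE 0.66) on 66 to 273 against 7 to 67 read pairs per mouse. Gsta4, known for its activity on hydroxynonenal, an aldehyde from oxidized lipids (chromosome 9, 78182774 to 78209349, plus strand), was at 38.0, 53.2, 51.5 and 76.3 CPM against 32.8, 42.5, 34.6 and 19.5 CPM. Only AAV8-GFP mouse 303 lay within the range of the AAV8-AGXT mice, and the log2 fold change was -0.76 (SE 0.25).

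Gsta2 and Gsta3 showed no separation of the groups. Gsta2 was at 5.86 to 18.4 CPM in AAV8-GFP mice and 6.32 to 12.9 CPM in AAV8-AGXT mice, with a log2 fold change of -0.18 (SE 0.32) that was 0.16 without AAV8-GFP mouse 315. Gsta3, the most abundant alpha member and the one with no shared words among them besides Gsta4 (chromosome 1, 21240589 to 21265661, plus strand), was at 514, 466, 591 and 686 CPM against 593, 659.8, 590.1 and 479.6 CPM. Its log2 fold change was 0.04 (SE 0.16), and the sign turned under upper-quartile scaling (-0.02) and under scaling by total counts (-0.18). Gstp1, the pi class enzyme also known as a regulator of stress kinases, was at 274, 228, 211 and 426 CPM against 383, 293, 324 and 311 CPM, and its log2 fold change of 0.20 (SE 0.22) turned to -0.03 when scaled by total counts.

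**Figure D2:**
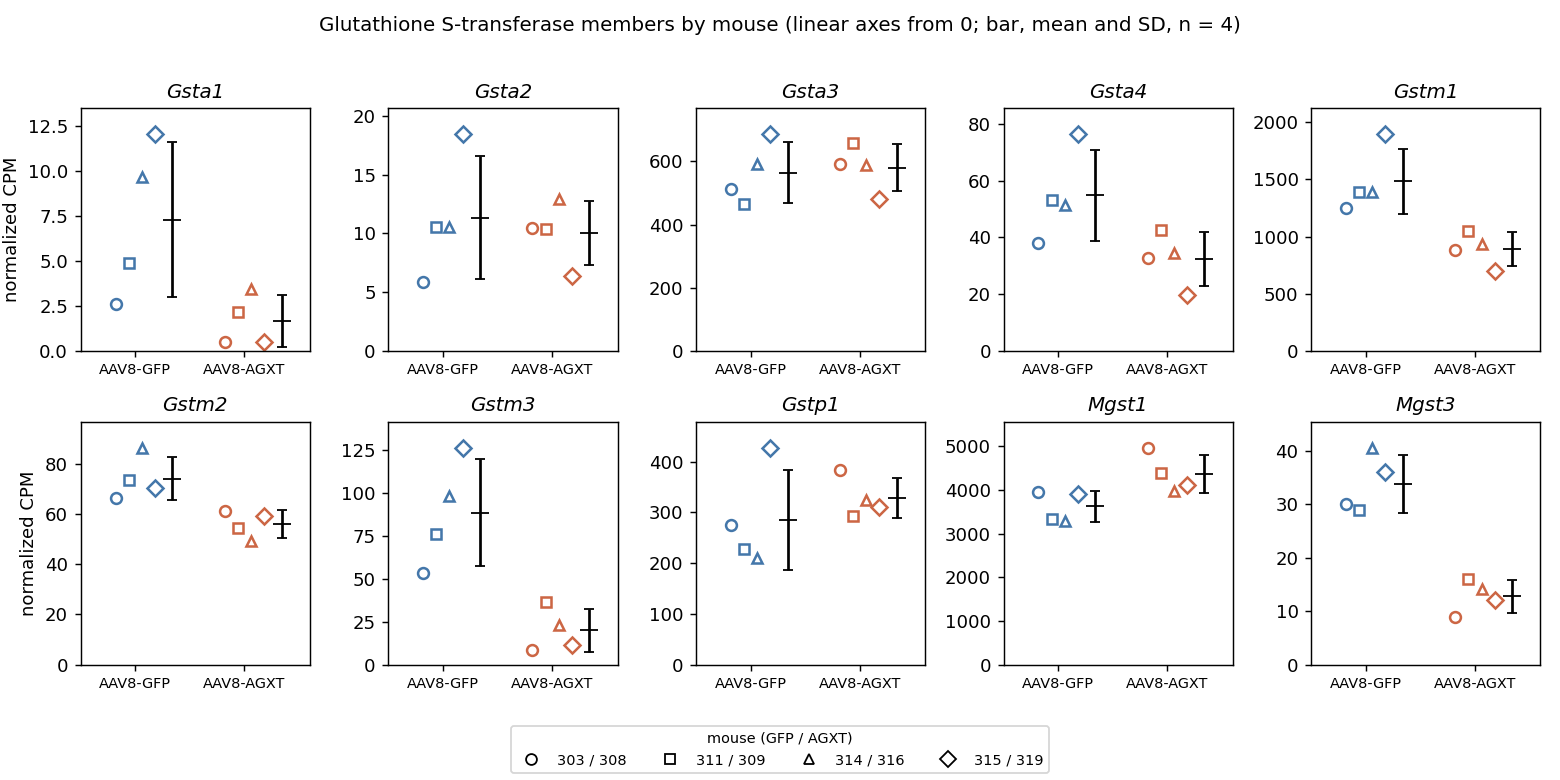
Normalized CPM (linear axes from 0) of the 10 members in each AAV8-GFP (blue) and AAV8-AGXT (orange) mouse, with symbols for the mice and a black bar for the mean and SD (n = 4). All AAV8-AGXT mice sit below all AAV8-GFP mice for Gstm1, Gstm2, Gstm3 and Mgst3 and above them for Mgst1, and the other 5 members overlap.

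By edgeR, 3 of the 10 members (Gstm1, Gstm3 and Mgst3) were called lower and 0 higher, where 1.90% of all tested genes were called lower and 2.45% higher. At an unadjusted p under 0.05, 6 members were lower and 0 higher, and DESeq2 called 5 lower (6.37% of its genes) and 0 higher (6.58%). The groups did not overlap, with AAV8-AGXT lower, for 4 members (7.63% of all tested genes) and, with AAV8-AGXT higher, for 1 (8.93%). The median log2 fold change was -0.57 over the members and 0.02 over all tested genes. Since the members were listed with this contrast known, nothing is read from these shares. The count of members called lower was 0 without AAV8-GFP mouse 311 or 314 or AAV8-AGXT mouse 319, fits in which 2, 15 and 14 genes were called in all, and 1 without AAV8-AGXT mouse 308 or 316. All mice included, 664 genes were called, 374 higher and 290 lower. Scaling by total counts instead gave 144 higher and 857 lower and moved the median of all genes to -0.22.

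Because near-copies can trade reads, members were also summed by class, in CPM per mouse. Gsta1, Gsta2, Gm3776 and Gm10639 together were at 9.61, 17.2, 22.6 and 33.4 CPM in AAV8-GFP mice, and the AAV8-AGXT mice had 11.05, 13.04, 16.7 and 7.03 CPM, with a log2 fold change of -0.79 (SE 0.36) and overlapping groups. The sum over all 6 alpha genes, in which Gsta3 outweighs the others, had a log2 fold change of -0.03 (SE 0.17). Gstm1, Gstm2 and Gstm3 together were at 1373 to 2092 CPM in AAV8-GFP mice and 765.2 to 1139 CPM with AAV8-AGXT, the log2 fold change being -0.77 (SE 0.18). Gstm1 makes up most of this sum, and the pseudogenes that share words with the mu genes are not in it, so the split of reads to Gstm2 and Gstm3 was not tested. The sum of the 3 passed the threshold that calls a gene and the sum with the other mu genes, at -0.69 (SE 0.17), did not, and the 3 pi genes gave 0.14 (SE 0.20).

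In the AAV8-GFP group mouse 303 was the lowest for 6 of the 10 members and mouse 315 the highest for 7, both at once for 5 members, while both held for 12.5% of all tested genes. In the AAV8-AGXT group mouse 319 was the lowest for 5 members and mouse 309 the highest for 5, as they were for 22.3% and 29.7% of all tested genes. The median coefficient of variation over the members was 24.0% in AAV8-GFP and 20.5% in AAV8-AGXT mice, against 15.1% and 18.6% over all tested genes. Paralogs that share words are not independent of each other in these counts.

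The rest of the family was measured by 22 other genes, of which 17 were tested, and edgeR called 3 of them lower and 0 higher. At an unadjusted p under 0.05, 5 were lower and 4 higher, while DESeq2 called 4 lower and 4 higher. The median log2 fold change over the 17 genes was -0.22. Gm3776, the near-copy of Gsta1 shown above, fell from 1.05, 1.71, 2.35 and 2.78 CPM in AAV8-GFP mice to 0.138, 0.481, 0.257 and 0.189 CPM in AAV8-AGXT mice, with a log2 fold change of -2.86 (SE 0.45; edgeR adjusted p = 0.0248). It rested on 27 to 63 read pairs per AAV8-GFP mouse and 2 to 8 per AAV8-AGXT mouse, and was not called without AAV8-GFP mouse 311 or 314 or AAV8-AGXT mouse 319.

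Gstm5, at the far end of the mu cluster on the opposite strand, fell from 9.64, 12.7, 10.1 and 8.91 CPM to 6.70, 6.25, 7.09 and 6.51 CPM (log2 fold change -0.64, SE 0.15; edgeR adjusted p = 0.0451). Its exons overlap those of another gene, and of the 8 fits that each left out a mouse it was called only in the one without AAV8-GFP mouse 315. Gstp3, a pi gene with no shared words, fell from 18.8, 25.0, 25.6 and 25.8 CPM to 15.7, 12.1, 15.9 and 17.1 CPM (log2 fold change -0.65, SE 0.15; edgeR adjusted p = 0.0444) and was called only without AAV8-GFP mouse 303 or AAV8-AGXT mouse 309. Both genes were apart between the groups.

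The other 14 tested genes were not called. Those with the highest fold changes were outside the alpha, mu and pi classes. Gstt2 of the theta class averaged 95.3 ± 16.2 CPM with GFP and 170.0 ± 48.7 CPM with AGXT (SD over 4 mice each; log2 fold change 0.83, SE 0.21; edgeR adjusted p = 0.0545). Gstt3 was at 13.5 ± 0.893 and 23.6 ± 9.21 CPM (0.80, SE 0.22; edgeR adjusted p = 0.0698), with exons that overlap another gene. For Gstz1, the zeta class enzyme that also acts in tyrosine breakdown, the means were 532.4 ± 42.9 and 787.7 ± 136.0 CPM (0.57, SE 0.15; edgeR adjusted p = 0.061), and exons of Pomt2 and Gm6566 overlap on the opposite strand. For Gsto1, of the omega class, they were 78.2 ± 11.7 and 109.5 ± 13.5 CPM (0.49, SE 0.14; edgeR adjusted p = 0.0717). The groups were apart, with AAV8-AGXT higher, for Gstt3, Gstz1 and Gsto1, and they overlapped for Gstt2. DESeq2 called these 4 genes higher.

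Gstk1 of the kappa class had a log2 fold change of 0.35 (SE 0.16), Gstt1 of -0.14 (SE 0.14), Gstcd, whose exons overlap Ints12, of -0.22 (SE 0.26) and Gstp2 of -0.93 (SE 0.43). Within the mu cluster, the log2 fold change of Gstm6 was -0.32 (SE 0.15). Gstm4 (0.15, SE 0.10) and Gstm7 (0.08, SE 0.16) had values that turned to -0.09 and -0.18 when scaled by total counts, and Gstm7 was at -0.11 without AAV8-AGXT mouse 308. Hpgds, the prostaglandin D synthase of the sigma class, had a log2 fold change of -0.95 (SE 0.35). Of the MAPEG relatives of Mgst3, Ptges, a prostaglandin E synthase, had -1.98 (SE 0.71) and Alox5ap, the partner of the leukotriene-forming lipoxygenase, -0.53 (SE 0.30), with exons that overlap Gm19719, both with wide errors at low counts. Mgst2, Ltc4s, Gsto2, Gstt4 and Gm10639 had too few read pairs to be tested, at most 21 per mouse.

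**Figure D3:**
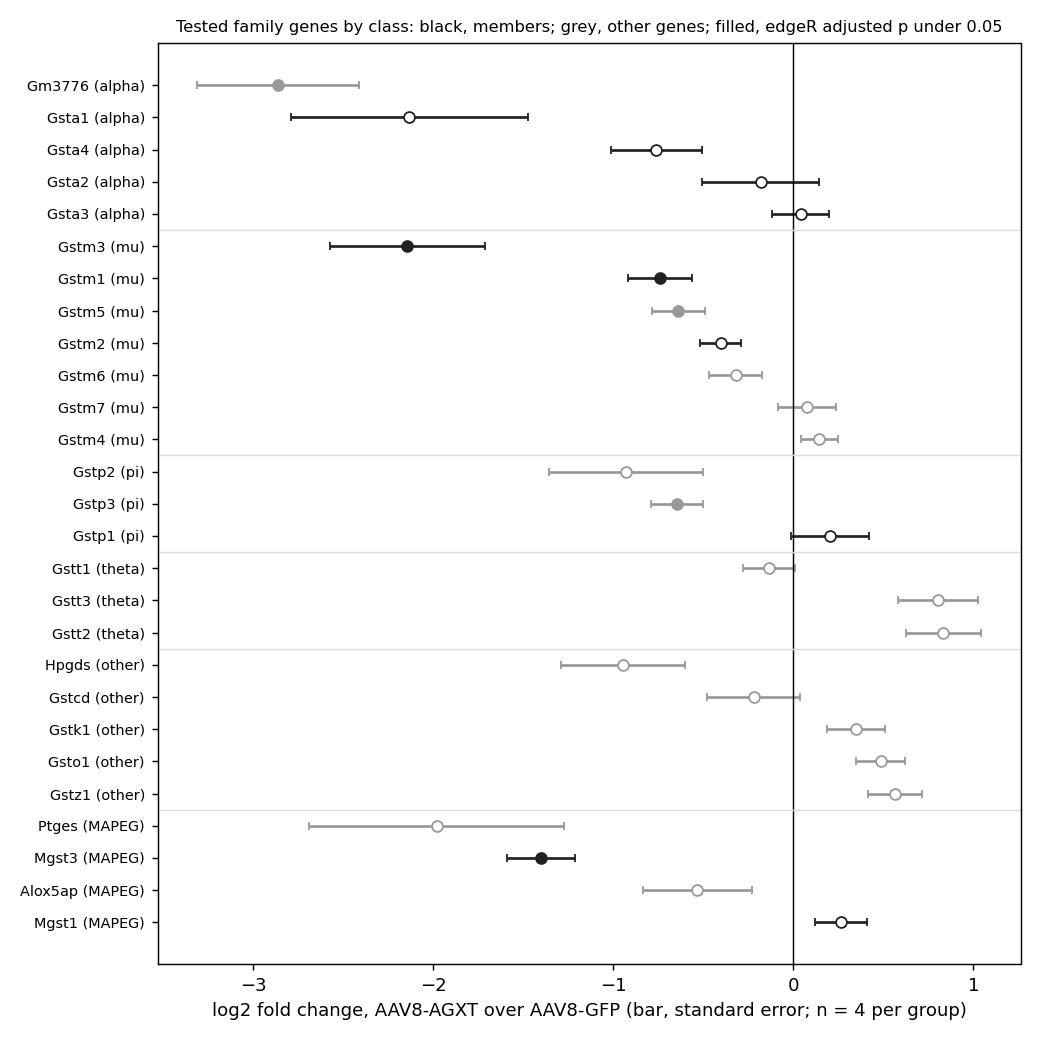
Log2 fold change of AAV8-AGXT over AAV8-GFP (horizontal axis; bars, SE; n = 4 per group) for the 10 members (black) and the 17 other tested family genes (grey), by class; filled points were called by edgeR. Called genes lie between -2.86 (Gm3776) and -0.64 (Gstm5), and the positive values of Gstt2, Gstt3, Gstz1, Gsto1 and Gstk1 are open points.

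**Figure D4:**
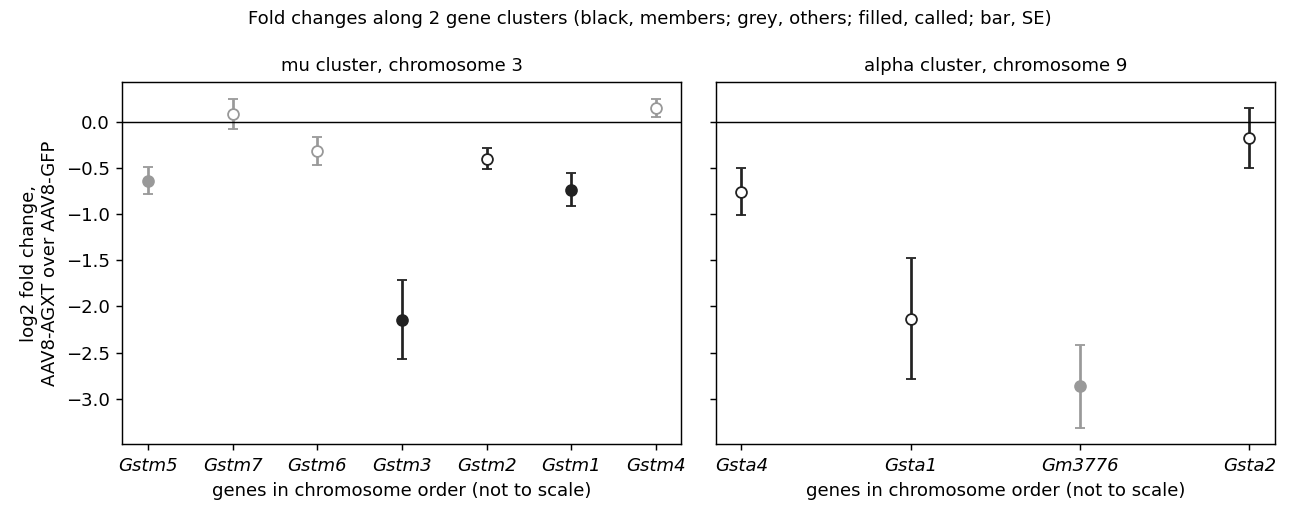
Log2 fold change of AAV8-AGXT over AAV8-GFP (vertical axis; bars, SE) of the tested genes of the mu cluster on chromosome 3 and the alpha cluster on chromosome 9, in chromosome order and not to scale; black marks members, grey other genes and filled points genes called by edgeR. Gstm3 (-2.14) has neighbours at -0.32 (Gstm6) and -0.40 (Gstm2), and Gsta1 (-2.13) and Gm3776 (-2.86) lie between Gsta4 (-0.76) and Gsta2 (-0.18).

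Neighbouring genes thus had unlike fold changes. In the mu cluster the order along the chromosome was Gstm5, Gstm7, Gstm6, Gstm3, Gstm2, Gstm1 and Gstm4, and the 3 genes called lower had uncalled genes between them. No test of the difference between neighbours was made.

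Promoter sequence was examined for the core of the antioxidant response element, the site that NRF2 binds with small MAF proteins, written as TGACNNNGC and searched on both strands from 250 bases before to 50 bases after each RefSeq start (GRCm38.p6). Windows were found for 9 of the 10 members, all but Gsta4, and 2 of the 9 held the core, Gsta3 and Mgst1. Some members have more than 1 start, and 2 of their 11 windows held it. Of the other family genes, Gstm5, which was called lower, and Gstm7 held it. Among all 32851 promoter windows, 12.4% held it. All 4 matches are shown with 8 bases on each side and the core in capitals. In Gsta3 the core starts 121 bases before the start site (chr1:21240456-21240480, plus strand). In Mgst1 it starts 56 bases before 1 of the starts and reads on the opposite strand (chr6:138140463-138140487, printed on the plus strand). It starts 42 bases before the start of Gstm5 (chr3:107895804-107895828, plus strand) and 129 bases before 1 of the starts of Gstm7 (chr3:107931727-107931751, minus strand).
Gsta3: ctcaggcaTGACATTGCatttttct
Mgst1: ggggcttgGCACGGTCAggaggcgg
Gstm5: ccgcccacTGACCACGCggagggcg
Gstm7: tgaagaccTGACAAAGCgaagccaa
The other 7 members, Mgst3 among them, had no match in their windows, which says only that these letters are not there. Compared end to end, the 300-base windows of Gsta1 and Gm3776 had 29 differences (90.3% alike), and those of Gsta1 and Gsta2 were 75.3% alike. Each window is set by its own annotated start, and the windows are shifted against each other. Bases at the ends that only 1 window covers count as differences, so these shares understate how alike the shared bases are.

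Genes that act with the transferases were described from lists of the pathway. Of 7 tested genes of glutathione synthesis and recycling, 1 was called lower, Slc3a2, the heavy chain of amino acid transporters including the cystine carrier. It fell from 79.3 ± 5.21 CPM with GFP to 53.8 ± 7.94 CPM with AGXT (SD over 4 mice each; log2 fold change -0.56, SE 0.12; edgeR adjusted p = 0.0376). The median over this list was -0.39. Slc7a11, the light chain of the cystine carrier, averaged 0.40 CPM with GFP and 0.36 CPM with AGXT and had too few read pairs to be tested. Of 13 genes of glutathione breakdown and mercapturate formation, 1 was called higher, Oplah, the oxoprolinase that returns glutamate from the glutathione cycle, and the list's median was 0.19. Oplah rose from 145.5, 124.3, 124.8 and 132.4 CPM to 286.0, 218.5, 222.1 and 296.3 CPM (log2 fold change 0.96, SE 0.14; edgeR adjusted p = 0.0207), with all AAV8-AGXT mice above all AAV8-GFP mice. Its exons overlap those of Smpd5 and Exosc4 on the opposite strand.

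Among 6 glutathione peroxidases tested, Gpx8, a peroxidase of the endoplasmic reticulum, was called lower at 3.24 ± 0.742 against 1.36 ± 0.386 CPM (log2 fold change -1.26, SE 0.29; edgeR adjusted p = 0.0439), and the list's median was -0.54. Among 8 exporters of conjugates, Abcc5 was called lower at 33.6 ± 3.09 against 22.2 ± 4.25 CPM (-0.60, SE 0.14; edgeR adjusted p = 0.0479), with a median of 0.11 over the list. Of 11 NRF2 targets outside the family, Osgin1, an oxidative stress-induced growth inhibitor, was called lower at 392.0 ± 49.9 against 219.1 ± 49.4 CPM (-0.84, SE 0.19; edgeR adjusted p = 0.0425), with a median of -0.37. Of the 8 fits that each left out a mouse, 1 called Slc3a2 (without AAV8-AGXT mouse 316), 1 Gpx8 (without AAV8-GFP mouse 315), 1 Abcc5 (without AAV8-AGXT mouse 309) and 1 Osgin1 (without AAV8-AGXT mouse 308). Oplah was called in 5, but not without AAV8-GFP mouse 311 or 314 or AAV8-AGXT mouse 319.

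None of 12 regulators of these genes was called by edgeR. At an unadjusted p under 0.05, 3 were higher and 1 lower, and DESeq2 called 2 higher and 1 lower. Besides Nr1i3, given below, the higher ones were Bach1 (log2 fold change 0.70, SE 0.22; edgeR adjusted p = 0.0875) and Keap1 (0.24, SE 0.10; edgeR adjusted p = 0.152). The groups did not overlap for either. DESeq2 called Bach1 but not Keap1, whose exons overlap Gm16754 on the opposite strand. Bach1, Keap1 and the lower one were named after their values were seen. The lower one was Nfe2l2, which encodes NRF2. It was at 110.5, 130.3, 122.4 and 163.9 CPM in AAV8-GFP mice and 93.3, 104.1, 101.3 and 86.5 CPM in AAV8-AGXT mice, without overlap (log2 fold change -0.45, SE 0.13; edgeR adjusted p = 0.0787). The smallest p was that of Nr1i3, the nuclear receptor CAR that induces drug metabolism in hepatocytes. Nr1i3 was at 49.98, 24.0, 27.5 and 33.3 CPM in AAV8-GFP mice and 153.7, 42.6, 65.7 and 100.7 CPM in AAV8-AGXT mice (log2 fold change 1.43, SE 0.37; edgeR adjusted p = 0.0599), with AAV8-AGXT mouse 309 below AAV8-GFP mouse 303. Its exons overlap those of Tomm40l on the opposite strand, and the strand setting of the counting is not given in the sources used here.

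In whole liver, fewer cells of a type and less RNA per cell cannot be told apart, and markers of several cell types also differed between the groups. Hepatocyte markers, 5 of 5 with a fold change above 0 and 1 called higher, summed to 42590.0 to 51570.0 CPM with GFP and to 52300.0 to 73240.0 CPM with AGXT. Pericentral hepatocyte markers, 3 of 6 called higher, summed to 8011 to 9851 against 16090.0 to 20380.0 CPM, and periportal ones, 0 of 6 called by edgeR or DESeq2 and 2 higher at an unadjusted p under 0.05, to 2962 to 5563 against 4886 to 6477 CPM. Cholangiocyte markers, 0 of 5 called by edgeR, 4 lower by DESeq2 and 5 lower at an unadjusted p under 0.05, summed to 25.1 to 67.1 against 14.3 to 34.8 CPM. Lipid-associated macrophage markers (1 of 4 called lower) summed to 169.4 to 255.4 against 31.7 to 168.2 CPM, stellate cell and fibroblast markers (1 of 5) to 270.4 to 538.7 against 58.8 to 248.0 CPM, and proliferation markers (3 of 4) to 18.98 to 31.8 against 4.35 to 10.4 CPM.

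Markers of macrophages and Kupffer cells (418.8 to 726.4 against 200.7 to 580.5 CPM), endothelial cells (78.3 to 122.1 against 85.7 to 144.5 CPM), T cells (6.83 to 11.6 against 2.83 to 7.65 CPM), B cells (2.29 to 6.37 against 2.58 to 4.37 CPM) and neutrophils (4.23 to 12.4 against 2.14 to 8.68 CPM) overlapped between the groups, with 0 genes called by edgeR, 3 lower by DESeq2 and 3 lower at an unadjusted p under 0.05. The neutrophil genes Ly6g and Mpo were at or near 0 and not tested, and the defining genes of the other lists were detected. Within the AAV8-AGXT group, mouse 308 had the lowest Mgst3, Gstm3, cholangiocyte, lipid-associated macrophage and stellate values at once. It was the lowest for 2 of the 10 members, and mouse 319 for 5. The AAV8-GFP group showed another order. There mouse 315 had the lowest cholangiocyte (25.1), lipid-associated macrophage (169.4) and stellate (270.4) sums but the highest Gstm3 (126.1 CPM). For Mgst3, Gstm3 and the other members, the part of these cell types in the result was not tested.

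**Figure D5:**
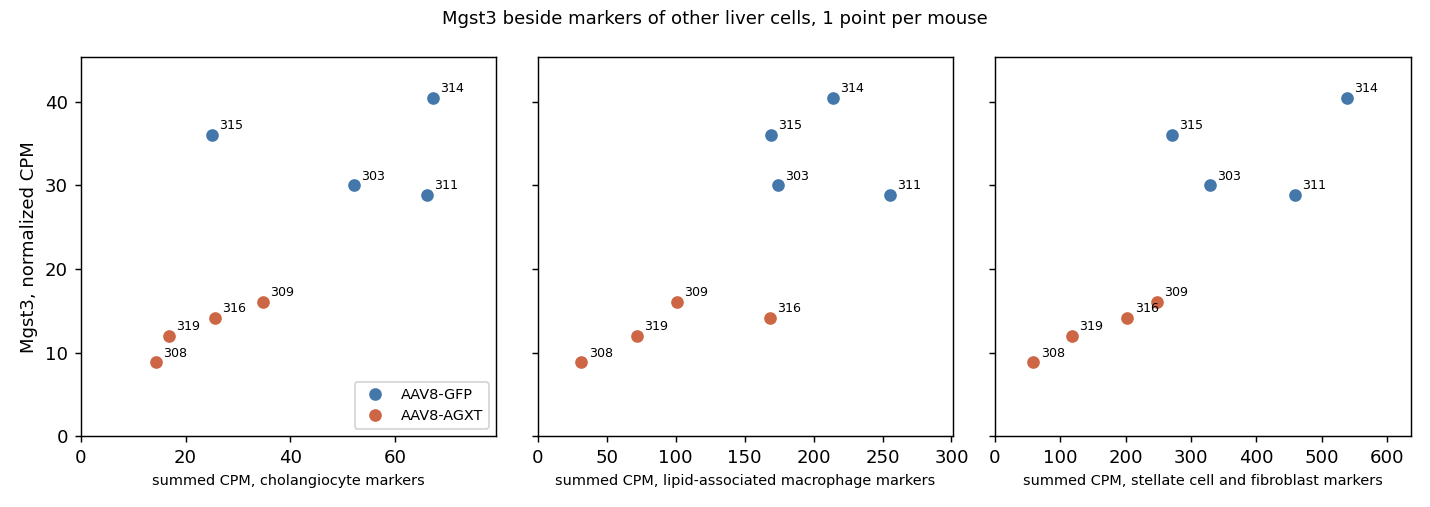
Mgst3 (vertical axis, normalized CPM) beside the summed CPM of cholangiocyte, lipid-associated macrophage and stellate cell and fibroblast markers (horizontal axes) in each AAV8-GFP (blue) and AAV8-AGXT (orange) mouse. The lipid-associated macrophage and stellate sums of the groups are apart and the cholangiocyte sums overlap (25.1 to 67.1 and 14.3 to 34.8), and mouse 308 is lowest on every axis. AAV8-GFP mouse 315 has the lowest marker sums of its group, while its Mgst3 lies above that of mice 303 and 311.

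The tested genes whose profile over the 8 mice was nearest to that of Mgst3 were found by the root mean square difference of log2 CPM, each profile centred on its own mean. The nearest of 15247 genes was Anxa2, a calcium-dependent membrane-binding protein, at a difference of 0.13, where the median over all genes was 0.81. Anxa2 was at 220.2, 225.7, 312.8 and 251.1 CPM in AAV8-GFP mice and 65.7, 125.1, 135.3 and 86.8 CPM in AAV8-AGXT mice, so its lowest mouse was also 308 and its highest 314. The next were Creb3l1, a membrane-bound transcription factor (0.16), Gm7972 (0.18), Trim59 (0.18) and Aqp8, a water channel of hepatocytes (0.20). Among the other members, Gstm1 came nearest at place 438, then Gsta4 at 884, Gstm2 at 2011 and Gstm3 at 2310, while Mgst1 was at place 11325. Because all these genes share the 8 libraries and the group difference, the likeness is a description.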

How the data were processed

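Liver RNA of 8 mice was sequenced as stranded mRNA libraries, paired-end 76 bases, 1 library per mouse. Per the labels and the study's methods, the authors trimmed reads with Trimmomatic 0.35, aligned them to GRCm38 with HISAT2 2.1.0.13, used HTSeq 0.6.0 with Ensembl 90 genes for counting, and deposited raw counts per gene. The strand and overlap settings of the counting are not given in the sources used here. Between 17095433 and 28780140 read pairs per mouse were on genes (56.3 to 69.1% of the tallies), and the tallies of unassigned pairs were kept out of library sizes. Precision rests on the spread between mice (common biological coefficient of variation 23.3%).

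Mice were grouped by title. Counts were tested with edgeR 4.0.16 in R 4.3.3 (filterByExpr, TMM, quasi-likelihood test without robust estimation, group as the only term, Benjamini-Hochberg over 15248 genes, threshold 0.05), after the code was tested on simulated data. Log2 CPM used a prior count of 2. Alternatives were DESeq2 1.42.0, limma 3.58.1 (voom), other scalings and filters, each mouse left out and paralog sums. The sums over the near-copies of Gsta1 and over the whole mu cluster were added after seeing the data. Gene positions, exon lengths (GENCODE M21, same build; 52403 of 52636 identifiers and 148 of 150 listed symbols matched) and 67-base words came from the annotation. Members, gene lists and markers were chosen with earlier results of these data known. Named were all members, every measured family gene, each called pathway gene (or the smallest p where none was called) and the 5 genes nearest to Mgst3. Nfe2l2, Bach1, Keap1 and Slc7a11 were named after their values were seen.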

Additional observations from a re-analysis of the deposited data

Results flagged for a closer look

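Among 73 groups of 4 mice examined for the named genes, 5 had 1 mouse far from the other 3, with a gap to its neighbour over the group's range above the critical value of Dixon's test. Chance alone gives about 1 such group in 20. In AAV8-AGXT mice, mouse 308 was at 69.5 CPM for Gstm4 with the others at 57.8 to 59.1, at 37.3 CPM for Gstt3 with the others at 17.4 to 20.2, and at 145.8 CPM for Osgin1 with the others at 234.8 to 252.3. In AAV8-GFP mice, mouse 303 was at 18.8 CPM for Gstp3 with the others at 25.0 to 25.8, and at 317.8 CPM for Osgin1 with the others at 408.0 to 423.8. No member of the list had such a mouse. Nfe2l2, Bach1, Keap1, Slc7a11 and the genes nearest to Mgst3 were not examined in this way. Library 308 also had the lowest share of read pairs on genes, 56.3%.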

How the results depend on the processing

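Calls near the threshold depended on the method and on single mice. DESeq2 called 1068 genes higher and 1033 lower, 5 members lower, 4 other family genes higher, and 7 pathway genes higher and 10 lower. Scaling by total counts gave 144 higher and 857 lower, with 9 pathway genes lower, and without a filter on low counts 2 other family genes and 2 pathway genes were higher. Leaving out each mouse in turn gave 2 to 379 genes higher and 0 to 325 lower, 0 to 3 members lower, 0 to 2 other family genes higher and 0 to 2 lower, and 0 to 3 pathway genes higher and 0 to 2 lower, from 2 genes called in all without mouse 311 to 643 without mouse 309. Mgst3 was called in 13 of 16 alternatives (log2 fold change -1.62 to -1.28), Gstm3 in 11 of 16 (-2.61 to -1.91) and Gstm1 in 9 of 16 (-0.96 to -0.60). Each was called in all 8 alternatives that kept every mouse. Of the 8 fits that each left out a mouse, 5 called Mgst3, 3 Gstm3 and 1 Gstm1 (without AAV8-AGXT mouse 309). Signs turned only near 0: Gsta2 to 0.159 without mouse 315, Gsta3 to -0.0195 (upper-quartile scaling), -0.183 (total counts), -0.0568 and -0.0443 (without mouse 311 or 309) and -0.034 (alpha sum), Gstp1 to -0.0262, Gstm4 to -0.0946 and Gstm7 to -0.177 with total counts, and Gstm7 to -0.108 without mouse 308. Over the mice left out, Gsta2 ranged from -0.394 to 0.159, Gsta3 from -0.0568 to 0.152 and Gstm7 from -0.108 to 0.157. The causes were not tested. Alternatives were run for 33 genes of the members, the tested family and the named pathway genes. Nfe2l2, Bach1, Keap1, Slc7a11 and the genes nearest to Mgst3 were not among them. Over the 33 genes, 443 values kept their direction and side of the threshold, 64 lost and 21 gained a call, and 10 changed sign. No paired analysis was possible because the groups share no mouse numbers. Low counts limit Gsta1, Gm3776 and the 5 untested family genes.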
